A study of Homo sapiens and Mus musculus with 47 samples.

Results

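The cytosolic ribosomal protein genes are the protein-coding genes whose symbols name a protein of the large (RPL) or small (RPS) subunit of the cytoplasmic ribosome or of its acidic stalk (RPLP0, RPLP1 and RPLP2). They were chosen by the form of the symbol in each count table, and no measured value entered the choice. This gave 84 of the 57820 genes in the human tables, made up of 43 core RPL genes, 31 core RPS genes, the 3 stalk genes and 7 listed paralogs, whose symbols end in L or L1. Another symbol ending in L is counted with the core RPS genes. In the mouse tables it gave 82 of 55401 genes, with 43, 30, 3 and 6 members in the same classes.

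Sequencing of total poly(A) RNA (RNA-seq) and of RNA biotinylated next to chromatin (Chrom-seq) was compared between each treated group and its own control. In Chrom-seq, cells carry a chromatin reader fused to 10 copies of the GCN4 peptide, the peptides recruit the peroxidase APEX2 through a single-chain antibody, and RNA near the reader is biotinylated and captured. HCT116 cells (human colorectal cancer line), NIH3T3 cells (mouse fibroblast line) and Neuro-2a cells (mouse neuroblastoma line) carried the TAF3 reader, the PHD finger of mouse TAF3 that binds histone H3 trimethylated at lysine 4, and their controls carried the empty vector with no reader. The CBX7 reader, the chromodomain of mouse CBX7, binds histone H3 trimethylated at lysine 27. HEK293T cells (human embryonic kidney line) were used for RNA-seq with this reader against a control. The methods describe that control as untreated cells, while the labels call it control and list the treatment below for it too. The readers were expressed from transfected plasmids for 48 h. For every library of the series the labels list 48 h of expression, 500 µM biotin-aniline for 30 min and then 1 mM H2O2 for 1 min. The methods describe that treatment for Chrom-seq. HEK293T cells were also transfected for 48 h with antisense oligonucleotides (ASO) against the long noncoding RNA SETD5-AS1, LINC00641 or LINC00662, against a shared control group that received the negative-control oligonucleotide NC. Each of the 12 groups held 3 libraries except the LINC00641 ASO group, which held 2, numbered 2 and 3. Each group came from 1 cell line, and the labels do not say whether replicates came from separate cultures. The study calls the replicates of HEK293T Chrom-seq and of the CBX7 RNA-seq independent. The p-values measure the spread between these libraries, which may be technical.

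Ribosomal proteins assemble with ribosomal RNA in the nucleolus, and a growing cell makes them in matched amounts because a ribosome holds its proteins in fixed proportion. Their mRNAs are short, abundant and carry a 5′ terminal oligopyrimidine (TOP) tract, a C at the first base followed by an unbroken run of C and T, through which the kinase complex mTORC1 and the RNA-binding protein LARP1 control their translation. Many of these genes carry small nucleolar RNAs (snoRNA) in their introns, and processed pseudogenes of them are scattered over the genome.

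The start sites of 9 of the members named further on are shown, and those of other named members are not printed. The stretches run from 40 bases before to 20 bases after the annotated RefSeq start in GRCh38.p14, a different build from that of the count tables (hg19 and mm10). Capitals mark the run of at least 5 pyrimidines that begins with C within 5 bases of the start, and any TATA box (TATAAA), YY1 motif (AAGATGG), ETS motif (CCGGAAG) or SP1 motif (GGGGCGGGG) on either strand. RPLP0 is the anchor of the stalk and RPLP1 one of the proteins it carries, RPL3 lies close to the peptidyl transferase centre, RPL21 and RPL24 are other large-subunit proteins, RPS7 and RPS26 belong to the small subunit, and RPL22L1 and RPL26L1 are paralogs. They lie on the + strand for RPS7 (chr2:3575220-3575279), RPL26L1 (chr5:172958689-172958748), RPS26 (chr12:56041878-56041937), RPL21 (chr13:27251518-27251577) and RPLP1 (chr15:69452778-69452837), and on the - strand for RPL24 (chr3:101686699-101686758), RPL22L1 (chr3:170870176-170870235), RPLP0 (chr12:120201092-120201151) and RPL3 (chr22:39319604-39319663).
RPLP0: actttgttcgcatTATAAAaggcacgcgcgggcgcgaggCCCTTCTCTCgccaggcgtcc
RPLP1: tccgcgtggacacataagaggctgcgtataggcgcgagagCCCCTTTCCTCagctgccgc
RPL3: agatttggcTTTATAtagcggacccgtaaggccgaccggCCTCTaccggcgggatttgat
RPL21: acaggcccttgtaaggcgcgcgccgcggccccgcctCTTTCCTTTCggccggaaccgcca
RPL24: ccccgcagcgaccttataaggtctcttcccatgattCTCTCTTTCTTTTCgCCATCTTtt
RPS7: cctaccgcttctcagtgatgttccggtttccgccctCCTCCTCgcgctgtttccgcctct
RPS26: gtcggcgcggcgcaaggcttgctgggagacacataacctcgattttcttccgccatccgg
RPL22L1: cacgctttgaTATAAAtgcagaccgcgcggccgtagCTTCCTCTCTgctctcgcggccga
RPL26L1: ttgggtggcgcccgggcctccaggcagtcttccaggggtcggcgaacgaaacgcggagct

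Of the 84 human members, 66 had an entry in the RefSeq promoter table. A C at the annotated start followed by at least 4 pyrimidines stood in 42 of the 66 (63.6%), against 4.04% of the 27305 promoters in the table, and when the tract could begin anywhere from 5 bases before to 5 after the start it stood in 50 (75.8%), against 21.1% of all promoters. In the printed stretches of RPS26 and RPL26L1 no such tract began in that window, nor did one in the entries of RPL17 and RPL6, which are not printed. Over the window from 250 bases before to 50 after the start, and counting both strands, CCGGAAG (the core of ETS-family sites) was found in 34.8% of the members against 10.7% of all promoters, AAGATGG (YY1) in 13.6% against 6.06%, GGGGCGGGG (SP1) in 9.09% against 16.0%, and TATAAA in 10.6% against 11.95%. These are matches of letters and describe the annotated start sites.

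The 35 libraries used held between 8258859 and 17558305 counted reads each, and no pair of replicates agreed within sampling noise. The targeted or expressed genes followed their labels. SETD5-AS1 was at 4.15 to 4.91 CPM (counts scaled to a common library size) under its ASO against 49.7 to 51.2 in the NC libraries. LINC00641 was at 0.909 to 1.95 against 35.9 to 40.5, and LINC00662 at 1.25 to 1.997 against 11.7 to 13.4. For the targeted and reader genes CPM used library size alone, and CPM of the members further on also used TMM factors. CBX7 stood at 39.7 to 44.6 CPM against 14.4 to 18.4, Taf3 at 8005 to 9397 against 121 to 132 in NIH3T3 and at 1599 to 1915 against 171 to 195 in Neuro-2a, and TAF3 at 32.5 to 32.8 against 22.5 to 25.5 in HCT116, where reads of the mouse reader need not align to the human gene. The same limit holds for the mouse CBX7 reader in HEK293T cells. The summed markers of HCT116, NIH3T3 and Neuro-2a were highest in the line's own table, and all 4 measured markers of HEK293T were above 1 CPM in its tables, although one of them, Vim, was higher in NIH3T3. Libraries that stood apart from their replicates over the members were Neuro-2a TAF3 replicate 1, the HEK293T RNA-seq control replicate 2, SETD5-AS1 ASO replicate 3 and, less so, NIH3T3 TAF3 replicate 3. Values without them are given beside some of the named results that they moved by over 1.5 times, not beside all. In bulk libraries like these, fewer cells and less RNA per cell cannot be told apart.

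Together the members took 3.38% to 3.64% of the counted reads in the HCT116 control libraries, 1.76% to 1.95% in NIH3T3, 1.81% to 2.15% in Neuro-2a, 4.27% to 5.40% in the RNA-seq control and 5.15% to 5.64% in the NC libraries. Per kilobase of transcript, the highest control levels in HCT116 were those of RPL12 (2278 CPM per kb), RPL19 (1618), RPL3 (1561), RPL13A (1458) and RPLP0 (1201), against a median of 277 over the members with a transcript length. In NIH3T3 they were those of Rplp1 (1475), Rps6, Rpl19 and Rps3a1 (median 198), and in Neuro-2a those of Rpl19 (1233), Rps23, Rplp1, Rpl8 and Rpl4 (median 222). RPL19 led both HEK293T tables, at 3937 CPM per kb in the RNA-seq control (median 288), followed by RPL35, RPL23A, RPS15 and RPL3, and at 4505 in the NC libraries (median 367), followed by RPL12, RPL35, RPS15 and RPL23A.

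A few members were near 0 in every library of a table. RPL10L, a copy used in the testis, had no read in any library of the 5 tables. RPL26, RPS10 and RPL36A never exceeded 3, 8 and 4 reads in a library of the human tables. Another annotated protein-coding gene on the same strand covers 99.5%, 99.1% and 96.5% of their spans. Those covering genes held at most 13, 74 and 39 reads in a library. In the mouse tables Rpl13 and Rpl24 had no read at all and Rps10 at most 8, and the gene Galnt2l, which covers all of the span of Rpl13, held 3294 to 6293 reads. RPL17, a protein at the exit of the nascent-chain tunnel, shares 78.2% of its span with RPL17-C18orf32, yet held 497 to 1470 reads. Where genes overlap on one strand, the reads of a member depend on how the counting shared them, so these low values are values of the tables. RPL21 has the most named pseudogenes of all the human members (56).

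The first question was which of these transcripts the TAF3 reader enriched over the empty vector in HCT116. The 3 libraries labelled TAF3 gave the members 3.77% ± 0.0873 (SD, n = 3) of their reads against 3.51% ± 0.133 (SD, n = 3) in the control (exact permutation test, two-sided p = 0.1, the smallest that 3 against 3 allows). Of the 79 members with enough reads to test (all but RPL10L, RPL26, RPL36A, RPL39L and RPS10), 42 rose, which is 53.2% of them against 17.9% of all genes tested, and 3 fell, against 17% of all genes (edgeR, adjusted p under 0.05). The median member difference was 0.16 on the log2 scale against -0.0067 over all genes, so the usual size was small. Only 1 member rose by 0.75 or more, RPL3L, and only 1 fell by as much, against backgrounds of 3.34% and 3.28%.

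The rises came from both subunits. Among the core RPL genes 23 of 41 rose and 1 fell, and among the core RPS genes 15 of 30 rose and 2 fell. RPL26L1, the close copy of RPL26, measured 33.6, 29.1 and 30.6 CPM in the control libraries and 46.1, 49.0 and 51.0 with TAF3 (replicates in numerical order here and below). Its groups were well apart, with a log2 fold change of 0.65 ± 0.079 SE, edgeR adjusted p = 8.58e-09. RPS26, a small-subunit protein mutated in Diamond-Blackfan anaemia, measured 99.3, 87.7 and 94.6 CPM and 134, 158 and 124 CPM, again without overlap (0.57 ± 0.068 SE, edgeR adjusted p = 6.16e-09). RPL17 measured 44.4, 37.0 and 42.2 CPM in the control and 57.8, 63.3 and 50.7 with TAF3 (0.48 ± 0.080 SE, edgeR adjusted p = 4.94e-06). RPS27A, made as a fusion with ubiquitin, measured 264, 284 and 292 and 339.8, 464 and 335 CPM (0.44 ± 0.071 SE, edgeR adjusted p = 2.51e-06), with replicate 2 well above its partners, and without it the log2 fold change was 0.27.

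RPL3L, the muscle form of RPL3, had the largest fold among the members on very few reads, with 0.430, 0.346 and 0.117 CPM in the control and 1.27, 0.447 and 1.26 with TAF3 (1.71 ± 0.57 SE, edgeR adjusted p = 0.0164). At these levels 1 read moves the value. Its edgeR call was lost without control replicate 3, TAF3 replicate 1 or TAF3 replicate 3, with adjusted p-values of 0.086, 0.10 and 0.083. The other paralogs that rose were RPL7L1, by 0.31 (edgeR adjusted p = 3.13e-05), and RPL22L1, by 0.24 (edgeR adjusted p = 0.00208), while RPS27L, a target of p53, was at -0.18 (edgeR adjusted p = 0.0668). In the other direction RPS29 went from 53.9, 54.2 and 52.8 to 46.4, 47.1 and 43.3 CPM (-0.23 ± 0.072 SE, edgeR adjusted p = 0.00883). RPL13A, at 1807, 1642 and 1479 CPM in the control and 1436, 1375 and 1422 with TAF3, fell by as little (-0.22 ± 0.053 SE, edgeR adjusted p = 0.00105), and both kept their groups apart. The RPS29 call was lost without TAF3 replicate 3 (adjusted p = 0.07), and RPL13A was at -0.15 without control replicate 1. Over the libraries left out in turn, the number of members that fell ran from 1 without TAF3 replicate 3 to 5 without TAF3 replicate 2.

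The stalk did not pass the test in HCT116, with 0.071 (edgeR adjusted p = 0.273) for RPLP0, 0.091 (edgeR adjusted p = 0.192) for RPLP1 and 0.036 (edgeR adjusted p = 0.644) for RPLP2. RPL5, which binds the 5S RNA together with RPL11, rose by 0.19 (edgeR adjusted p = 0.00274), and RPL11 stood at 0.13 (edgeR adjusted p = 0.0615). RPS14 (0.24), RPS4X (0.17) and RPL39 (0.24), a protein of the exit tunnel, rose, the last 2 calls being lost without TAF3 replicate 1 (adjusted p = 0.069 and 0.062), whereas RPL3 (-0.097), RPL10 (0.020), RPL22 (0.049), RPS6 (0.024), RPS19 (0.047) and RPS27 (0.083) did not pass. RPL31 was at 206, 326 and 197 CPM in the TAF3 libraries, and its call (0.32 ± 0.090 SE, edgeR adjusted p = 0.00434) was lost without replicate 2 (log2 fold change 0.051, adjusted p = 0.54).

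Genes that build the ribosome rose as well. All 22 ribosome biogenesis genes of the list used here rose, with a median of 0.42 and the largest rise in BOP1 (0.96), and 43 of 70 mitochondrial ribosomal protein genes rose and none fell (median 0.29; MRPS18C 0.85). Of the 6 chaperones of ribosomal proteins 3 rose (GRWD1 0.90), and all 5 ribosomal proteins that the symbol rule leaves out rose (median 0.24). Among other TOP mRNAs for translation factors 5 of 12 rose and 1 fell, 6 of 13 genes of the mTORC1 pathway rose and none fell, and of 37 tested pseudogenes of the members 4 rose and 2 fell. The share of reads from the mitochondrial genome was 12.3% ± 0.733 with TAF3 against 13.99% ± 0.235 in the control (SD, n = 3 each), and its part in the member differences was not tested. Of the HCT116 markers KRT8 (0.32) and KRT18 (0.21) rose and CDH1 (-0.40) and KRT19 (-0.29) fell. Of the markers of the other lines VIM (0.76) and FN1 (0.39) rose and COL1A1 (-0.53) fell. The other tested markers did not pass, and the part of the markers was not tested.

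**Figure D1:**
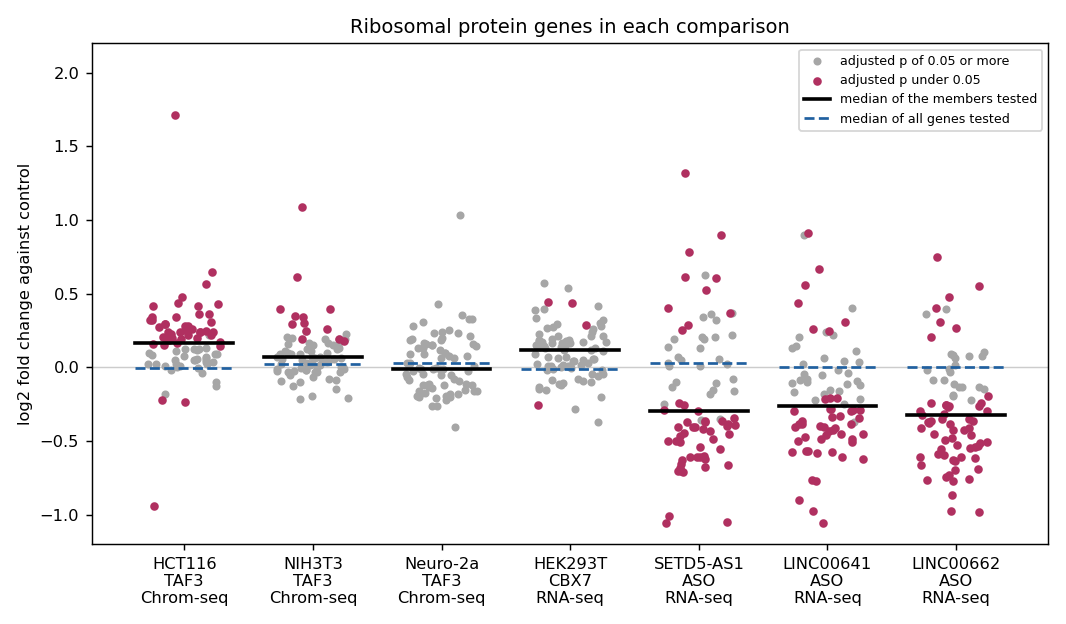
Log2 fold change against control (y axis) of each member tested (points) in the 7 comparisons with a control (x axis), in red where the edgeR adjusted p is under 0.05 and grey elsewhere, with a solid line at the median of the members and a dashed line at that of all genes. The members' medians lie at 0.16 in HCT116 and between -0.32 and -0.26 in the ASO comparisons. The CBX7 RNA-seq values are from the fit without pairing.

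In NIH3T3 the same reader gave a smaller number of calls. The members took 2.03% ± 0.0690 (SD, n = 3) of the reads against 1.85% ± 0.0956 (SD, n = 3) (exact permutation test, two-sided p = 0.1, the smallest possible). Of 77 tested members (all but Rpl3l, Rpl10l, Rpl13, Rpl24 and Rps10) 13 rose (16.9%, against 13.8% of all genes) and none fell (against 9.79%), a share of rises near the background. The median member difference was 0.068 against 0.020 over all genes. The count of rises was 5 without TAF3 replicate 3 (against 11.2% of all genes in that fit), 6 without control replicate 1 (11.4%) and 5 without control replicate 2 (12.4%), and 4 members fell without TAF3 replicate 2.

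Rpl37, a zinc-finger protein of the large subunit (mm10, chr15:5116645-5119140, + strand), was the only member past a log2 change of 0.75 (backgrounds of 10.7% for rises and 0.375% for falls). It measured 174, 176 and 218 CPM in the control and 289.7, 252 and 666 with TAF3, so all TAF3 libraries were higher and replicate 3 was far above the other two (1.09 ± 0.20 SE, edgeR adjusted p = 0.000172). Without replicate 3 it still passed, at 0.52, and was no longer past 0.75. Rps29 passed the test although its groups of 81.3, 47.5 and 75.6 and 73.1, 80.0 and 116 CPM overlapped (0.40 ± 0.14 SE, edgeR adjusted p = 0.0418), and it was at 0.17 without TAF3 replicate 3 (adjusted p = 0.4). Rps26, Rps19, Rpl30, Rps2, Rps7, Rpl26, Rps15, Rpl18 and Rps28 rose by between 0.19 and 0.39, and of these 9 only Rps15 passed without TAF3 replicate 3, the rest standing between 0.079 and 0.22. Rps19 rose by 0.35 on the log2 scale with TAF3 libraries at 192, 193 and 311 CPM, the last of them the highest. The 3 stalk genes and the 4 tested paralogs did not pass (Rplp0 0.098, Rpl7l1 -0.023, Rpl22l1 -0.21, Rpl39l 0.15, Rps27l 0.19).

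By class, 5 of 41 core RPL and 8 of 29 core RPS genes rose in NIH3T3. Of 22 biogenesis genes none rose and 8 fell, of which nucleolin (Ncl) fell the most, by 0.31. Of 75 mitochondrial ribosomal protein genes 3 rose and 2 fell, of 14 TOP translation factors 2 rose and 4 fell, of 13 mTORC1 genes 1 rose and 1 fell, of 64 pseudogenes 5 rose and 1 fell, of the 3 ribosomal proteins outside the rule 1 rose, and none of 6 chaperones passed. The 3 tested epithelial markers rose in the TAF3 libraries, with a summed marker level of 1.51 to 7.03 CPM over the libraries. Fn1 (0.29), Gata2 (0.42) and Pax2 (6.06, with a mean under 1 CPM) rose as well, and the other tested markers did not pass. The part of the markers in the result was not tested.

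In Neuro-2a no member passed the test in either direction with edgeR (0 of 78 tested, all but Rpl10l, Rpl13, Rpl24 and Rps10, with backgrounds of 1.08% higher and 0.165% lower), none had an unadjusted p under 0.05, and DESeq2 called none. The members took 2.09% ± 0.0892 (SD, n = 3) of the reads against 2.02% ± 0.184 (SD, n = 3) (exact permutation test, two-sided p = 0.7), with a median difference of -0.0082. The libraries with TAF3 differed among themselves more than in the other lines. Rplp2, one of the pair of acidic proteins at the tip of the stalk, measured 301, 235 and 266 CPM in the control and 567, 251 and 260.2 with TAF3 (0.43 ± 0.27 SE, edgeR adjusted p = 0.472), so the single high value was that of replicate 1. Rps14 showed the same form, at 166, 83.0 and 93.5 CPM with TAF3 against 98.7, 76.6 and 96.8. Rpl32 (109, 221 and 252 CPM against 243, 204 and 253) and Rps3a1 (224, 389 and 410.1 against 397, 363 and 400.3) were low in that same library. Without that library Rplp2 was at -0.062, Rps14 at -0.038, Rpl32 at 0.023 and Rps3a1 at 0.049 on the log2 scale. Rps24 and Rpl35a then rose and Rpl10a fell, which is 3 of 78 members. The number of genes of all kinds that passed went from 211 to 2762, where 17006 were tested with all libraries in. The added calls were thus not particular to the members. None of the lists named for HCT116 held a gene that passed with all libraries in.

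The difference between the reader's effects in the 2 mouse lines was tested directly in one fit of the 12 libraries. No member passed (0 of 78, backgrounds of 0.902% higher and 2.48% lower in Neuro-2a), and 3 had an unadjusted p under 0.05, all lower in Neuro-2a, among them Rpl37 (-1.02). DESeq2 called none. The 95% interval for Rpl37, before any adjustment, ran from -1.80 to -0.25. It includes NIH3T3 TAF3 replicate 3, which was far above its partners in Rpl37.

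**Figure D2:**
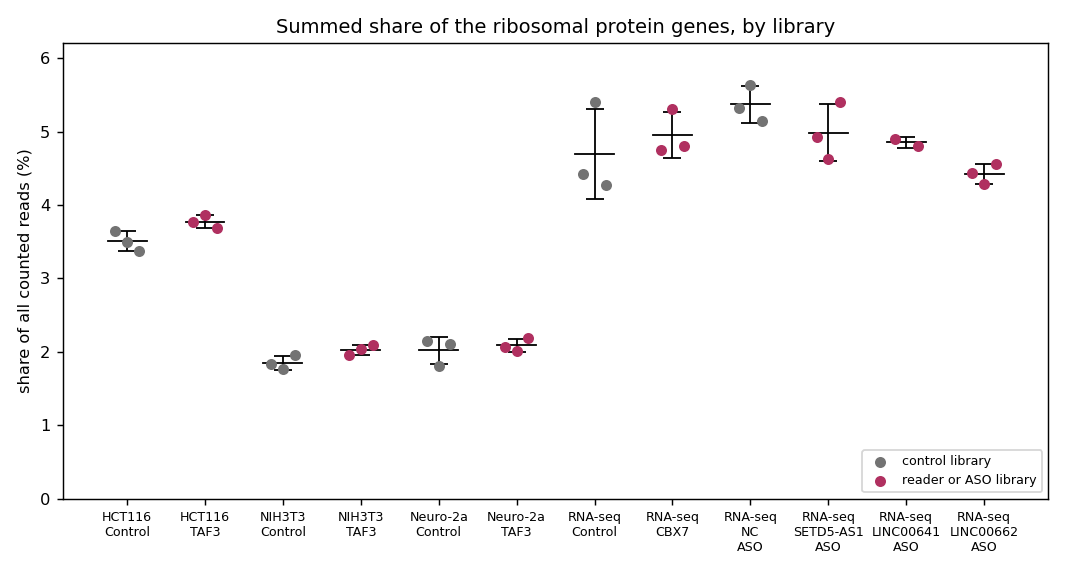
Percentage of all counted reads that fell on the members (y axis) in each of the 35 libraries (points, grey for controls and red for reader or ASO libraries), by group (x axis), with the group mean as a line and the SD as an error bar. The NC libraries lie between 5.15% and 5.64% and the LINC00662 ASO libraries between 4.29% and 4.55%.

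RNA-seq of HEK293T cells with the CBX7 reader asked whether the reader itself alters the transcriptome. The members took 4.95% ± 0.310 (SD, n = 3) of the reads against 4.70% ± 0.613 (SD, n = 3) in the control (exact permutation test, two-sided p = 0.6). In the fit without pairing, 3 of 81 tested members (all but RPL10L, RPL26 and RPL36A) rose (3.70%, against 13.8% of all genes) and 1 fell (1.23%, against 15.4%). None was past 0.75 in either direction (backgrounds of 4.17% and 3.48%). This count rested on single libraries and on the fit. With same-numbered libraries paired, as the numbers were taken to pair the samples here, it was 21 higher and 3 lower, against 16.4% and 17.8% of all genes in the same fit. Rises were then more frequent among the members than among all genes, the reverse of the fit without pairing. With library size alone as the scaling the count without pairing was 8 higher and 1 lower, against 15.3% and 13.8%. It was 42 higher and 1 lower without control replicate 2, against 16.8% and 16.3%, and it dropped to 0 without CBX7 replicate 2 or control replicate 1, and to 1 without CBX7 replicate 1 or control replicate 3.

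The 3 that rose in the fit without pairing were RPS12, RPL26L1 and RPL7L1, and RPL3 fell. RPS12 measured 143, 157 and 149 CPM with CBX7 and 85.5, 153 and 92.0 in the control (0.44 ± 0.16 SE, edgeR adjusted p = 0.0429), and control replicate 2 lay inside the CBX7 range. RPL26L1 measured 142, 195 and 184 and 100.2, 171 and 115 CPM (0.43 ± 0.15 SE, edgeR adjusted p = 0.0438), with the same overlap. RPL7L1 measured 214, 234 and 218 and 177, 216 and 151 CPM (0.29 ± 0.11 SE, edgeR adjusted p = 0.0495). Without control replicate 2 the log2 fold changes of these 3 were 0.76, 0.70 and 0.44. RPL3 alone of the 4 had groups apart, with 2115, 2246 and 2306 CPM with CBX7 and 2649, 2909.9 and 2396 in the control (-0.25 ± 0.077 SE, edgeR adjusted p = 0.0203). All 4 passed in the paired fit as well.

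In several members the replicates differed more than the groups. RPL30, a large-subunit protein, measured 38.1, 121 and 40.2 CPM in the control and 40.9, 104 and 77.2 with CBX7. RPS13 measured 79.4, 224 and 73.5 and 111, 157 and 120.2 CPM, and RPL38 191, 555 and 189 and 242, 481 and 327 CPM. In all of these control replicate 2 was the highest of the 6 libraries, and the second replicate with CBX7 was the next. RPL37 was at 195, 434 and 199 CPM in the control and 192, 245 and 205 with CBX7 (-0.37 ± 0.22 SE, edgeR adjusted p = 0.221), and in the paired fit it fell, at -0.28 (edgeR adjusted p = 0.042). Control replicate 2 was far above the other controls in RPL37, and a value without that library is not given here. In the fit without pairing, the other members named by rule stood between -0.059 and 0.30 and did not pass (RPLP0 -0.059, RPL5 0.068, RPL10 0.058, RPL11 0.18, RPL22 0.0080, RPL39 0.28, RPS4X 0.14, RPS6 0.21, RPS14 0.18, RPS19 0.026, RPS27 0.15, RPS27A 0.30), and nor did the paralogs RPL3L (0.57), RPL22L1 (0.23), RPL39L (-0.20) and RPS27L (0.40). With same-numbered libraries paired, 5 of these rose, namely RPS27A at 0.30 (edgeR adjusted p = 0.0013), RPL39 at 0.28 (0.014), RPS6 at 0.21 (0.017), RPS14 at 0.19 (0.039) and RPS27L at 0.40 (0.039). RPL38 rose in that fit too, at 0.30 (0.029).

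Around them, 15 of 22 biogenesis genes rose and 1 fell (RRP12 1.25), 23 of 70 mitochondrial ribosomal protein genes rose and 3 fell, 7 of 13 mTORC1 genes rose and 1 fell, and 2 of 6 chaperones rose. Of the 12 TOP translation factors 1 rose and 5 fell, the poly(A)-binding protein PABPC1 among them (-0.33), of 39 pseudogenes 3 rose and 1 fell, and none of the 5 ribosomal proteins outside the rule passed. Of the 4 tested HEK293T markers 3 fell (NEFM -1.03), as did all 4 tested NIH3T3 markers, while 2 of the 4 HCT116 markers and 2 of the 3 Neuro-2a markers rose and 1 HCT116 marker fell. The share of the mitochondrial genome was 2.61% ± 0.0490 with CBX7 against 3.01% ± 0.127 in the control (SD, n = 3 each), and the part of markers or mitochondrial reads in the result was not tested.

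The ASO comparisons asked what follows the loss of each long noncoding RNA, and in all 3 more members fell than rose. They share the NC libraries, so a high or low NC value enters each of them, and their values are set side by side. With the SETD5-AS1 ASO 42 of 81 tested members fell (51.9%, against 25.8% of all genes) and 10 rose (12.3%, against 26.9%), the number of rises running from 7 to 16 over the libraries left out in turn, with 16 without ASO replicate 2 (against 24.3% of all genes in that fit). With the LINC00641 ASO 42 of 80 fell (52.5%, against 24.4%) and 7 rose (8.75%, against 25.2%), and with the LINC00662 ASO 52 of 81 fell (64.2%, against 26.8%) and 7 rose (8.64%, against 27.6%). The median member differences were -0.29, -0.26 and -0.32 on the log2 scale, where the medians over all genes were 0.028, 0.0042 and 0.0013. The 3 members without enough reads were RPL10L, RPL26 and RPL36A, joined by RPS10 for LINC00641.

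As a share of all reads the members took 4.99% ± 0.389 (SD, n = 3) after the SETD5-AS1 ASO, 4.85% ± 0.0749 (SD, n = 2) after the LINC00641 one and 4.43% ± 0.134 (SD, n = 3) after that for LINC00662, against 5.37% ± 0.249 (SD, n = 3) in NC (exact permutation tests, two-sided p = 0.3, 0.2 and 0.1, where 0.1 is the smallest possible). The share of the mitochondrial genome was lower as well, at 2.63%, 2.22% and 2.64% against 3.24% in NC (exact permutation tests, two-sided p = 0.1 in each, the smallest possible), and its part in the result was not tested.

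The acidic stalk split within itself. RPLP1 (hg19, chr15:69745123-69748255, + strand) measured 1437, 1524 and 1313 CPM in NC, 957, 818 and 839.7 after the SETD5-AS1 ASO, 959 and 873 after the LINC00641 one and 872, 792 and 847 after that for LINC00662. Every ASO library was below every NC library, with log2 fold changes of -0.70 (edgeR adjusted p = 8.35e-07), -0.62 (edgeR adjusted p = 2.7e-06) and -0.70 (edgeR adjusted p = 4.89e-10). RPLP2 fell as well (-0.54, -0.42 and -0.43 in the same order). RPLP0, which holds both on the ribosome (hg19, chr12:120634489-120639038, - strand), was higher in every ASO library, at 1035, 1072 and 987 CPM in NC and 1269, 1325 and 1479, then 1233 and 1289, then 1185, 1206 and 1255 with the ASOs. Its log2 fold changes were 0.40 (edgeR adjusted p = 0.000176), 0.31 (edgeR adjusted p = 0.00185) and 0.30 (edgeR adjusted p = 6.92e-05).

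**Figure D3:**
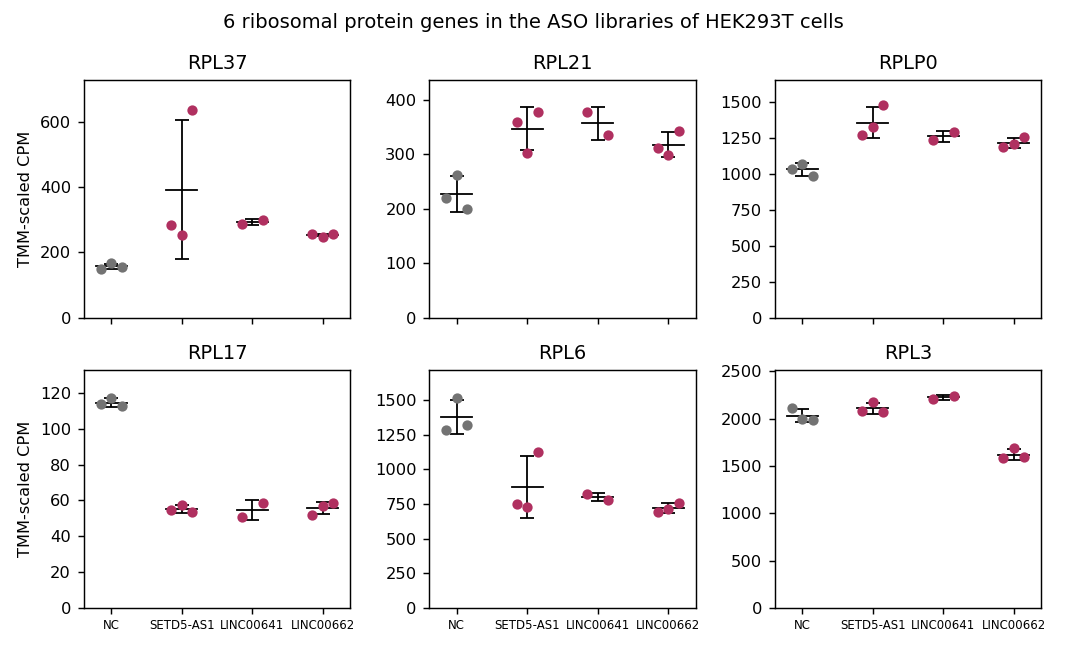
TMM-scaled CPM (y axes, from 0) of RPL37, RPL21, RPLP0, RPL17, RPL6 and RPL3 in the 11 ASO libraries (points, grey for NC), by oligonucleotide (x axis), with lines at the group means and error bars of 1 SD. RPL37, RPL21 and RPLP0 lie above the NC libraries in all the ASO groups, RPL17 and RPL6 lie below them, and RPL3 lies below them with the LINC00662 ASO alone.

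RPL37 (hg19, chr5:40825364-40835437, - strand) had the largest rise with each ASO. It measured 150.5, 167 and 156 CPM in NC, 284, 254 and 638 after the SETD5-AS1 ASO, 287 and 301 after the LINC00641 one and 257, 249 and 256 after that for LINC00662. No group overlapped with NC, and SETD5-AS1 ASO replicate 3 was more than the other two of its group together. The log2 fold changes were 1.32 ± 0.22 SE, edgeR adjusted p = 8.2e-05; 0.91 ± 0.079 SE, edgeR adjusted p = 1.02e-08; and 0.75 ± 0.065 SE, edgeR adjusted p = 2.37e-10. Without SETD5-AS1 ASO replicate 3 the first of them was 0.78, and it still passed. RPL21 (hg19, chr13:27825446-27830828, + strand) measured 219.9, 263 and 199 CPM in NC and 359, 302 and 378, 378 and 335, and 311, 298 and 342 with the 3 ASOs in the same order, again above NC throughout (0.62, 0.67 and 0.55). RPL24, which reaches across the subunit interface (hg19, chr3:101399935-101405626, - strand), rose by 0.52, 0.44 and 0.48.

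RPL5 rose with each ASO, by 0.26 (edgeR adjusted p = 0.0201), 0.56 (edgeR adjusted p = 1.5e-05) and 0.40 (edgeR adjusted p = 4.66e-06), but in the first comparison the groups overlapped, at 1023, 1177 and 1024 CPM in NC and 1271, 1122 and 1441, and that call was lost without control replicate 1 (adjusted p = 0.11), control replicate 3 (0.097) or ASO replicate 3 (0.081). RPL11, its partner on the 5S RNA, rose with the SETD5-AS1 ASO by 0.37 (edgeR adjusted p = 0.00299), or 0.24 without ASO replicate 3. It rose with the LINC00662 ASO by 0.20 (edgeR adjusted p = 0.0154), a call lost without ASO replicate 3, control replicate 2 or control replicate 3 (adjusted p = 0.17, 0.065 and 0.052), and stood at 0.22 (edgeR adjusted p = 0.0574) with the LINC00641 ASO.

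Among the falls, RPL17 (hg19, chr18:47014851-47018906, - strand) was the most even. It measured 114, 117 and 113 CPM in NC, 54.5, 57.6 and 53.4 after the SETD5-AS1 ASO, 50.5 and 58.5 after the LINC00641 one and 51.8, 56.9 and 58.5 after that for LINC00662. The ASO libraries held about the same level and lay far under NC (-1.05 ± 0.078 SE, edgeR adjusted p = 5.91e-09; -1.06 ± 0.091 SE, edgeR adjusted p = 1.01e-08; -0.97 ± 0.073 SE, edgeR adjusted p = 1.78e-11). RPL6 (hg19, chr12:112842994-112856642, - strand), another large-subunit protein, measured 1286, 1516 and 1323 CPM in NC, 750.2, 729 and 1127 after the SETD5-AS1 ASO, 819 and 781 after the LINC00641 one and 689, 714 and 758 after that for LINC00662. Only replicate 3 of the SETD5-AS1 ASO came near NC, and the log2 fold changes were -0.66, -0.77 and -0.86. RPL39 fell by the test in each (-0.61, -0.90 and -0.69), as did RPL15 (-0.71, -0.39 and -0.54), RPL10 (-0.51, -0.45 and -0.55), which joins the large subunit late, and RPL19 (-0.61, -0.46 and -0.41), the most abundant member per kilobase.

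On the small subunit RPS7 fell by 0.70, 0.58 and 0.61 on the log2 scale with the SETD5-AS1, LINC00641 and LINC00662 ASO (hg19, chr2:3622795-3628509, + strand). RPS6, the substrate of S6 kinase, fell by 0.37, 0.30 and 0.51, the SETD5-AS1 call being lost without control replicate 2 or ASO replicate 2 (adjusted p = 0.075 and 0.066) and the LINC00641 call having an edgeR adjusted p of 0.0455 that was lost without ASO replicate 3 (log2 fold change -0.096) or control replicate 2 (-0.16). RPS14, lost in the 5q- syndrome, fell by 0.50, 0.43 and 0.41, RPS19, the gene most often mutated in Diamond-Blackfan anaemia, by 0.41, 0.30 and 0.37, and RPS4X by 0.42, 0.40 and 0.61. RPS27A passed with the LINC00662 ASO alone, at -0.38 (edgeR adjusted p = 0.000106), with -0.076 (edgeR adjusted p = 0.661) and -0.22 (edgeR adjusted p = 0.0528) in the other two. RPS27 and RPL22 passed with no ASO. Of the core RPS genes 16 of 31, 16 of 30 and 20 of 31 fell and 1, 1 and 0 rose, and of the 41 core RPL genes 20, 20 and 27 fell and 7, 5 and 6 rose.

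RPS29 and RPL31 depended on 1 library. RPS29 measured 56.0, 59.5 and 59.7 CPM in NC and 32.4 and 35.1 with the LINC00641 ASO and 31.2, 28.7 and 38.3 with the LINC00662 ASO, falling with both, to a log2 fold change of -0.77 (edgeR adjusted p = 1.16e-06) and -0.77 (edgeR adjusted p = 9.12e-08). With the SETD5-AS1 ASO it measured 33.7, 27.6 and 161 CPM, the first pair of libraries below NC and the third above it (0.34 ± 0.41 SE, edgeR adjusted p = 0.504). RPL31 measured 351, 401 and 356 CPM in NC and 385, 322 and 1199 with that ASO, which passed the test (0.79 ± 0.31 SE, edgeR adjusted p = 0.0392), and without replicate 3 it was at -0.054 (adjusted p = 0.62). The call was also lost without each NC library in turn (adjusted p from 0.057 to 0.13).

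Of the 6 tested paralogs 4 fell after the SETD5-AS1 ASO, 4 after the LINC00641 one and 3 after that for LINC00662. RPL22L1, the partner copy of RPL22, measured 8.61, 9.65 and 10.2 CPM in NC, 2.82, 4.39 and 6.75 after the SETD5-AS1 ASO, 4.73 and 4.78 after the LINC00641 one and 3.95, 4.17 and 5.61 after that for LINC00662. All ASO libraries were below NC (-1.01 ± 0.23 SE, edgeR adjusted p = 0.00102; -0.97 ± 0.18 SE, edgeR adjusted p = 0.000168; -0.98 ± 0.18 SE, edgeR adjusted p = 3.03e-05), at levels low enough for counting noise to matter. RPS27L fell with each, to -1.06 (edgeR adjusted p = 0.00117), -0.57 (edgeR adjusted p = 0.0271) and -0.77 (edgeR adjusted p = 0.000365), with NC libraries as far apart as 11.4, 20.6 and 16.5 CPM, and the LINC00641 call was lost without ASO replicate 3 (adjusted p = 0.31), control replicate 2 (0.12) or control replicate 3 (0.072). RPL7L1 fell by 0.68, 0.51 and 0.39, RPL26L1 by 0.36 and 0.37 with -0.13 (edgeR adjusted p = 0.111) for the LINC00662 ASO, and RPL3L passed with none.

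RPL39L, the testis form of RPL39, was the paralog that rose. It measured 7.75, 5.56 and 6.83 CPM in NC, 13.3, 12.2 and 11.99 after the SETD5-AS1 ASO, 7.48 and 8.202 after the LINC00641 one and 7.96, 8.95 and 7.87 after that for LINC00662. The SETD5-AS1 ASO libraries were above all the others (0.90 ± 0.15 SE, edgeR adjusted p = 8.6e-05), and the other two comparisons gave 0.24 (edgeR adjusted p = 0.308) and 0.36 (edgeR adjusted p = 0.0651).

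Past a log2 change of 0.75, RPL37, RPL39L and RPL31 rose and RPS27L, RPL17 and RPL22L1 fell with the SETD5-AS1 ASO (backgrounds of 12.9% and 11.5%). With the LINC00641 ASO RPL37 rose and RPL17, RPL22L1, RPL39, RPS29 and RPL6 fell (11% and 11.5%), and with the LINC00662 ASO RPL37 rose and RPL22L1, RPL17, RPL6, RPS29, RPS27L and RPL23 fell (11.6% and 13.3%). Counts of 3 and 3, 1 and 5, and 1 and 6 of about 80 members were below those shares, so the members were called often and by little.

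**Figure D4:**
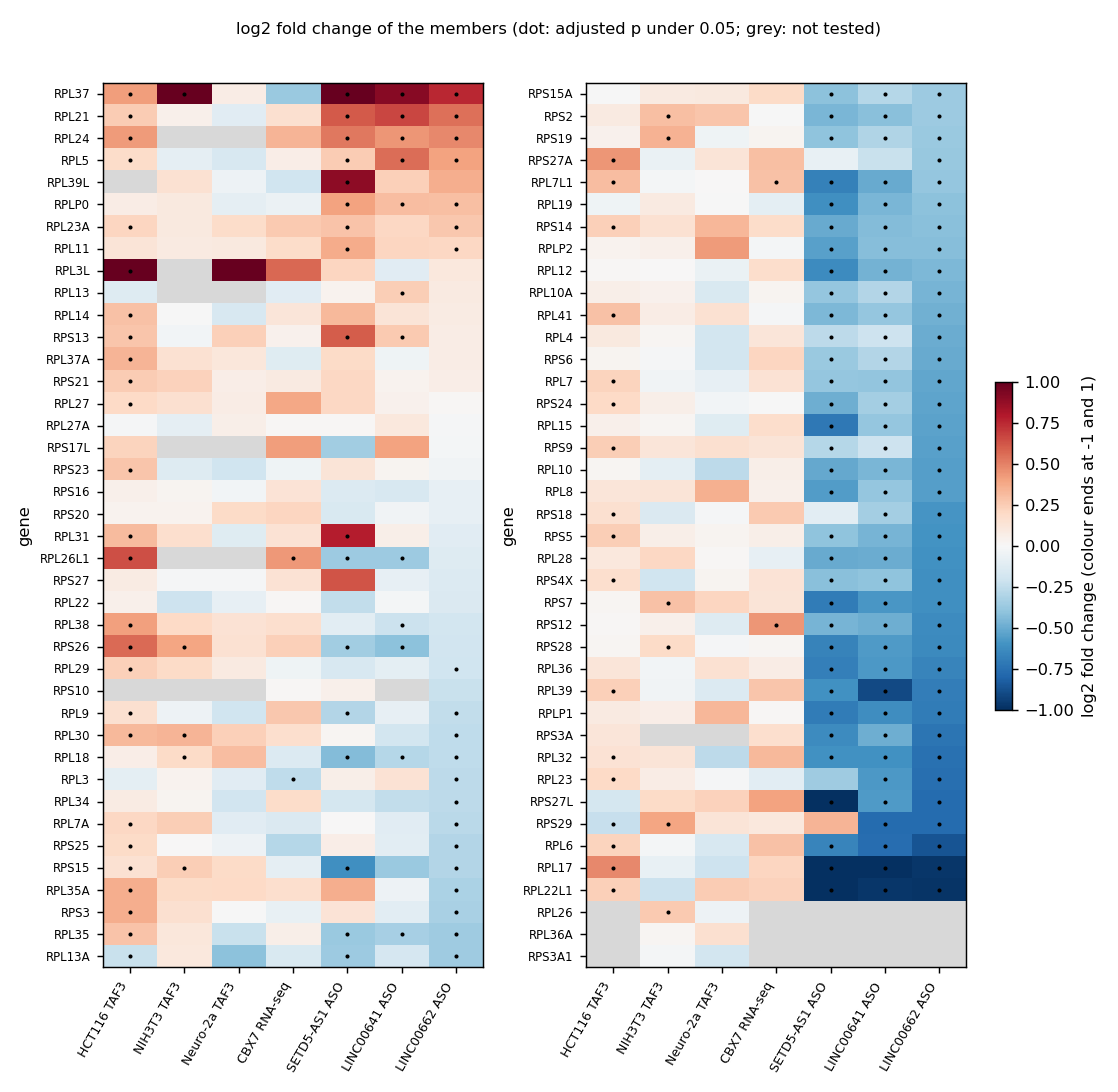
Log2 fold change of the members reported here (rows, in 2 panels ordered by the LINC00662 ASO) in the 7 comparisons with a control (columns), as colour that ends at -1 (blue) and 1 (red), with a dot where the edgeR adjusted p is under 0.05 and grey where a member was not tested, mouse genes being matched by symbol. RPL37, RPL21 and RPL24 are red and RPL17 and RPLP1 blue in all the ASO columns. The CBX7 RNA-seq values are from the fit without pairing.

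Differences between the oligonucleotides were tested directly in one fit of the 11 ASO libraries, as 3 pairs. Between the LINC00662 and SETD5-AS1 ASO 18 members were lower and 1 higher in the first (backgrounds of 17.3% and 15.2%), between LINC00641 and SETD5-AS1 1 and 1 (3.65% and 4.5%), and between LINC00662 and LINC00641 6 and 0 (12.4% and 9.65%). The first of these counts was 8 in all with DESeq2, and leaving out single libraries moved the 3 totals over 7 to 31, 0 to 5 and 3 to 14. With all libraries in, 22.2%, 1.23% and 7.41% of the 81 tested members were lower in the 3 pairs. Shares over all genes in the fits without 1 library are not given here. The totals of those fits therefore do not compare the members with all genes. For the first pair 7 was the total without SETD5-AS1 ASO replicate 3 and 31 that without SETD5-AS1 ASO replicate 1. For LINC00641 against SETD5-AS1 none was left without LINC00641 ASO replicate 2 and 5 passed without SETD5-AS1 ASO replicate 1. For LINC00662 against LINC00641 14 passed without SETD5-AS1 ASO replicate 3 and 3 without LINC00641 ASO replicate 2, LINC00662 ASO replicate 1 or LINC00662 ASO replicate 2.

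RPL3 set LINC00662 apart from both others. It measured 2117, 1999 and 1983 CPM in NC, 2082, 2173 and 2068 after the SETD5-AS1 ASO, 2205 and 2243 after the LINC00641 one and 1579, 1685 and 1594 after that for LINC00662, so the last group alone lay under NC (hg19, chr22:39708887-39716394, - strand). LINC00662 against SETD5-AS1 was -0.38 (95% interval -0.50 to -0.26, edgeR adjusted p = 2.92e-05) and LINC00662 against LINC00641 was -0.46 (-0.59 to -0.33, edgeR adjusted p = 1.31e-05). RPL4 (-0.30 and -0.34) and RPS9 (-0.32 and -0.39) passed in both pairs in that direction. RPS3A, RPL10A and RPL8 passed against LINC00641, and each lost its call without LINC00641 ASO replicate 2. RPL7L1 was the member higher with the LINC00662 than with the SETD5-AS1 ASO, by 0.23 (edgeR adjusted p = 0.0277), and it lost the call without LINC00662 ASO replicate 1, LINC00662 ASO replicate 3 or SETD5-AS1 ASO replicate 2.

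RPL39L was lower with the LINC00641 ASO than with the SETD5-AS1 ASO, at -0.67 (edgeR adjusted p = 0.0105), and lower with the LINC00662 ASO, at -0.59 (edgeR adjusted p = 0.0021), and RPL15 was higher with LINC00641 than with SETD5-AS1, at 0.32 (edgeR adjusted p = 0.0114). Both LINC00641 calls were lost without either LINC00641 library, and that of RPL15 also without SETD5-AS1 ASO replicate 2. For RPL37, where SETD5-AS1 ASO replicate 3 stood far above its partners, the interval of LINC00641 against SETD5-AS1 was -0.85 to 0.019 around -0.42 (edgeR adjusted p = 0.286). For RPL17 it was -0.19 to 0.15 around -0.017, and for LINC00662 against SETD5-AS1 -0.14 to 0.17 around 0.013, so no difference in RPL17 was detectable within those bounds. RPS29 (-1.18) and RPL31 (-0.96) passed with the 2 largest differences between LINC00662 and SETD5-AS1, and without SETD5-AS1 ASO replicate 3 they were at 0.095 and -0.12 (adjusted p = 0.58 and 0.36). The RPS29 call was also lost without LINC00662 ASO replicate 1 or 2.

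The other genes around the ribosome moved both ways under the oligonucleotides. Of 22 biogenesis genes 15, 15 and 13 fell and 3 rose in each, BYSL falling the most (-1.43, -1.45 and -1.14), while the largest rises were POLR1A (1.73) for SETD5-AS1 and TCOF1 for LINC00641 (1.98) and LINC00662 (2.08). Of the 6 chaperones of ribosomal proteins 5 fell with each ASO, and TSR2, the carrier of RPS26, was the lowest each time (-1.25, -1.07 and -0.85). Of 13 mTORC1 genes 6 rose in each comparison and 2, 3 and 4 fell, with MTOR at 1.62, 1.44 and 1.33 and the S6 kinase gene RPS6KB1 at -1.31 and -1.23 with the SETD5-AS1 and LINC00641 ASO. TOP translation factors were split as well (5, 7 and 4 of 12 higher, 3, 3 and 6 lower), with EIF3H the largest rise for SETD5-AS1 (1.16) and LINC00662 (1.13), PABPC1 for LINC00641 (1.22), and EEF2, the translocation factor, the largest fall in each (-0.50, -0.34 and -0.61). Of 70 mitochondrial ribosomal protein genes 14, 14 and 20 rose and 30, 29 and 24 fell, of the 5 ribosomal proteins outside the rule 1 rose in each and 2, 2 and 3 fell (RPSA 0.55 and FAU -0.61 with the SETD5-AS1 ASO), and of 36 to 40 tested pseudogenes 2 or 3 rose and 6, 7 and 11 fell. Of the 4 tested HEK293T markers 0, 1 and 2 rose and 2, 1 and 1 fell, of the 4 epithelial markers of HCT116 1, 1 and 2 rose and 3, 3 and 2 fell. Of the 4 tested markers of NIH3T3 none rose and 2, 2 and 4 fell (COL1A1 -0.54, -0.89 and -0.67, COL3A1 -0.94, -0.71 and -0.67), and of the 3 tested markers of Neuro-2a none rose and 2 fell with each (GATA2 -1.28, -1.16 and -0.73, GATA3 -1.22, -1.34 and -1.18). The part of these markers in the result was not tested.

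A pair of features of the genes that the rule did not use were set beside the calls. Of the human members 28 hold annotated snoRNA genes, 58 in all. With the LINC00662 ASO 19 of the 28 hosts fell and 4 rose, against 33 and 3 of the 53 others, and in HCT116 13 of 28 hosts rose and 1 fell, against 29 and 2 of 51. With the LINC00641 ASO 13 of 28 hosts fell and 5 rose, against 29 and 2 of 52 others, with the SETD5-AS1 ASO 14 of 28 hosts fell and 5 rose, against 28 and 5 of 53 others, and in the CBX7 RNA-seq 1 of 28 hosts fell and 1 rose, against none and 2 of 53 others (medians 0.051 and 0.14). The medians of hosts and others were -0.34 and -0.31 with the LINC00662 ASO, -0.20 and -0.29 with the LINC00641 ASO, -0.25 and -0.34 with the SETD5-AS1 ASO, and 0.12 and 0.19 in HCT116. Members with a TOP tract exactly at the annotated start had medians of -0.17, -0.21 and -0.30 with the SETD5-AS1, LINC00641 and LINC00662 ASO, and members with a promoter entry but no such tract had -0.42, -0.40 and -0.46. With the SETD5-AS1 ASO 18 of 40 members with the tract fell and 5 rose, against 17 and 1 of 23 without it, with the LINC00641 ASO 19 of 39 fell and 4 rose, against 16 and 1 of 23, and with the LINC00662 ASO 25 of 40 fell and 3 rose, against 18 and 1 of 23. In HCT116 22 of 39 with the tract rose and 1 fell, against 11 and 1 of 23 without it, with medians of 0.20 and 0.13. In the CBX7 RNA-seq 1 of 40 rose and none fell, against 2 and 1 of 23, with medians of 0.067 and 0.17. These splits were not tested and are given as descriptions.

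The libraries that stood apart did so in particular members. SETD5-AS1 ASO replicate 3 lay more than 1 log2 unit above the mean of the other libraries of its group in 7 of 78 members (RPS29 by 2.38, RPL31 by 1.77 and RPS27 by 1.76 the most), with an SD over members of 0.58. HEK293T RNA-seq control replicate 2 did so in 10 of 77 members (RPL30 by 1.61, RPS13 by 1.55 and RPL38 the most), with a median over members of 0.42. Across the 77 members measured in both, the deviations of these 2 libraries had Pearson's r = 0.61 and Spearman's rho = 0.76, a description over genes, which are not independent replicates, of 2 libraries from separate tables. This r was the largest of the pairs compared among the libraries with the largest SDs. With Neuro-2a TAF3 replicate 1, SETD5-AS1 ASO replicate 3 had r = -0.20 and the control replicate 2 r = -0.058. With NIH3T3 TAF3 replicate 3 they had r = 0.046 and 0.15. In Neuro-2a TAF3 replicate 1 the SD over 76 members was 0.50, with Rplp2 highest. For comparison, the HCT116 libraries had SDs of 0.066 to 0.17 over members.

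**Figure D5:**
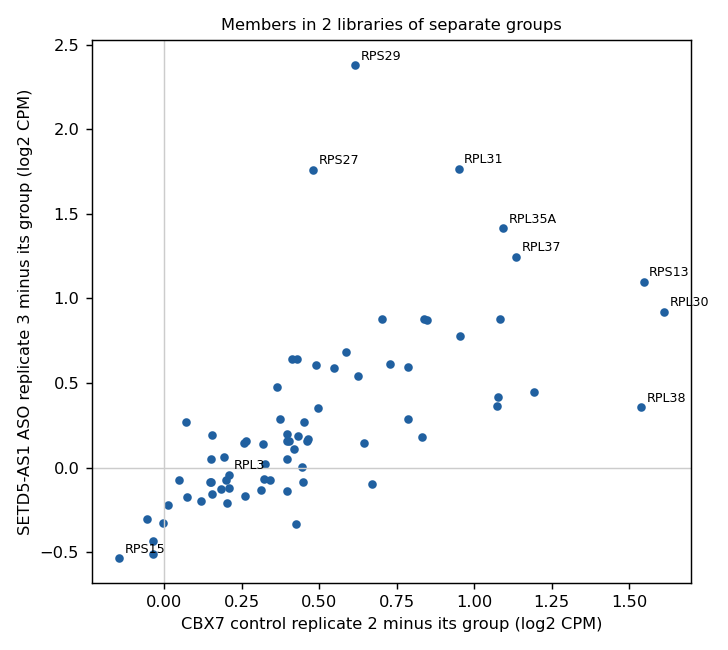
Difference of 73 of the 77 members (points) from the mean of the other libraries of its group, on the log2 CPM scale, in the HEK293T RNA-seq control replicate 2 (x axis) and SETD5-AS1 ASO replicate 3 (y axis). RPS29 at 2.38 and RPL31 at 1.77 top the y axis, and RPL30 at 1.61 and RPS13 at 1.55 are farthest along the x axis.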

How the data were processed

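Counted reads per gene were analysed for 35 of the 47 libraries, 23 human and 12 mouse, in 12 groups. Per the submitters' processing notes, reads were checked with FastQC 0.11.8, trimmed with fastp 0.23.1, aligned with HISAT2 2.1.0 to hg19 or mm10, counted with featureCounts 2.0.1 and compared with DESeq2 1.34.0. Raw counts per gene, with GENCODE gene symbols and no scaling, were taken from 5 of the tables that the authors deposited. Strand and multi-mapping settings of the counting are not given in the sources used here, so reads shared with pseudogenes, antisense or overlapping genes may move a count. The other 12 libraries, HEK293T Chrom-seq, are not analysed here, and 3 comparisons designed with them were not run.

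Each comparison was fitted over all genes whose summed count exceeded 3 per library with edgeR 4.0.16 (TMM, quasi-likelihood test, Benjamini-Hochberg adjustment over all tested genes) in R 4.3.3. A gene passed at an adjusted p under 0.05, and a second rule, the one the study used, also asked that the log2 fold change reach 0.75 or -0.75. Each reader or ASO group was fitted with its own control, the 11 ASO libraries together for differences between ASOs, and both mouse lines together for the interaction. Adjusted p-values in the text are from edgeR, and they remain so where a library is left out. Shares of counted reads were compared with exact permutation tests over libraries. CPM values were TMM-scaled over each table, except those of the targeted and reader genes, which used library size alone. Levels per kilobase used the longest APPRIS principal transcript. Differences of single libraries used members with a mean CPM of at least 5 and a pseudocount of 0.5. The number of libraries, more than their depth, limits precision, apart from members with few reads. The fit was tested on simulated data, of which no result is given here.

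Named members were the 3 largest rises and falls that passed in each comparison, the 7 paralogs, RPLP0, RPL3, RPL5, RPL10, RPL11, RPL22, RPL39, RPS4X, RPS6, RPS14, RPS19, RPS27 and RPS27A, the 5 highest and 3 lowest per length, and the largest rise and fall of the other lists. Others were named after their values were seen. Some genes that the rule names are not reported here by name and are left out of the labelled figures, though they stay in every fit and count. The members and lists were chosen with earlier results of these data known. Alternatives were DESeq2 1.42.0, its size factors, library size alone, TMM without the members, no filter or filterByExpr, pseudogene counts added, all ASO libraries in 1 fit, and each library left out. A fit with the replicate number as a block was a further alternative. Same-numbered libraries deviated together in the CBX7 RNA-seq, where the correlations of their deviations from the group means were 0.16 to 0.41 in all 3 pairs, and the numbers were therefore taken to pair the samples there. In no other comparison were all pairs over 0.1. Values for the CBX7 RNA-seq are from the fit without pairing unless the paired fit is named.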

Additional observations from a re-analysis of the deposited data

How the results depend on the processing

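With library size alone in place of TMM, the count of members past the threshold was 23 in NIH3T3 (13 with TMM) and 9 in the CBX7 RNA-seq (8 higher and 1 lower, against 3 and 1), and the members' median was -0.15 with the SETD5-AS1 ASO (-0.29 with TMM), where the all-gene median moved from 0.028 to 0.17, and -0.19 with the LINC00641 ASO (-0.26). With DESeq2 the counts were 8 in NIH3T3 and 8 between the LINC00662 and SETD5-AS1 ASO, and with its size factors in edgeR 7 in the CBX7 RNA-seq. Without the filter they were 18 in the CBX7 RNA-seq and 2 in Neuro-2a. With the replicate block the CBX7 RNA-seq had 24 members past the threshold, 21 higher and 3 lower, and the interaction of the mouse lines 1. Leaving out 1 library gave 5 to 19 in NIH3T3, 0 to 3 in Neuro-2a, 0 to 43 in the CBX7 RNA-seq, 7 to 31 for LINC00662 against SETD5-AS1, 0 to 5 for LINC00641 against SETD5-AS1 and 3 to 14 for LINC00662 against LINC00641, and LINC00641 ASO medians of -0.33 to -0.18. Without SETD5-AS1 ASO replicate 3 the sign turned in RPL31 under that ASO, which ranged from -0.054 to 1.103, and in RPS29 for LINC00662 against SETD5-AS1, which ranged from -1.58 to 0.095. The cause was not tested in any of these. The share of all genes that passed moved between fits as well, and it is given above for some fits only. The counts in this paragraph therefore describe the members alone and do not compare them with all genes. Leaving out 1 library kept 38 to 51 members past the threshold in HCT116 and, for the ASO against SETD5-AS1, LINC00641 and LINC00662, 46 to 59, 41 to 54 and 53 to 64. In comparisons where the numbers were not shown to pair libraries, correlations of same-numbered libraries ran from -0.17 to 0.19. Members with few reads, such as RPL3L in the human tables, are limited by depth.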
